A study of Mus musculus with 6 samples.

Results

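The 10 genes of inhibitory signalling described here were read in 2 subsets of mouse natural killer (NK) cells. The genes were chosen by name, as the rows of the authors' deposited table with the symbols Ptpn6, Ptpn11, Ptpn22, Inpp5d, Csk, Cbl, Cblb, Ubash3b, Dgka and Dgkz, and all 10 were found among the 21442 named genes on the array. Both subsets came from spleens of C57BL/6 mice, a strain that the labels also write as C57BL/5. T cells were removed with antibody to Thy1.2 and complement, and the remaining splenocytes were kept for 7 days in medium with 1000 IU of interleukin-2, so that every sample holds interleukin-2-activated cells and none holds resting ones. Cells were then sorted as CD3-CD122+Ly49G2-Ly49C/I+ (called Ly49C/I+ here) or as CD3-CD122+Ly49G2+Ly49C/I- (called Ly49G2+ here), with 3 arrays for each subset. The labels give no genotype, age or sex and do not say whether arrays came from separate mice or cultures, so p-values reflect only how far these samples spread, and that spread may be technical.

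Inhibitory receptors of NK cells, including the inhibitory Ly49 receptors, carry a short tyrosine motif in their tails, the ITIM. Once phosphorylated, the motif recruits the tyrosine phosphatases SHP-1 and SHP-2 or the lipid phosphatase SHIP, which remove phosphates that activating receptors have added. Further brakes act on the same pathways without an ITIM: the kinase Csk shuts down Src family kinases, Cbl proteins mark signalling proteins with ubiquitin, and diacylglycerol kinases consume the lipid messenger diacylglycerol.

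The genes that passed the test were Cblb, Ubash3b and Ptpn6. Their promoter windows are shown because these are the transcripts on which the comparison turns. Each runs from 250 bases before to 50 after a gene start, from RefSeq on build GRCm38.p6, read 5′ to 3′ on the gene's strand. Cblb lies at chr16:52031299-52031598 on the plus strand, Ubash3b at chr9:41158013-41158312 on the minus strand and Ptpn6 at chr6:124738660-124738959 on the minus strand. Capitals mark every match, on either strand and with overlaps allowed, to the letters AGGAAG (a core bound by ETS factors), TGTGGT (RUNX), GGGCGG (Sp1) or TATAAA (the TATA box).
Cblb: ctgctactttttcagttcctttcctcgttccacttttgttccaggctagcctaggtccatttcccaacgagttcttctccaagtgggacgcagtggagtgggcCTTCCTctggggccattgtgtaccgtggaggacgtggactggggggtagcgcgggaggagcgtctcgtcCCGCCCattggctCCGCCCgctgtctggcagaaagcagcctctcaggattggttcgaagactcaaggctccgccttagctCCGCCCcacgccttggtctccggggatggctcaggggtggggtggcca
Ubash3b: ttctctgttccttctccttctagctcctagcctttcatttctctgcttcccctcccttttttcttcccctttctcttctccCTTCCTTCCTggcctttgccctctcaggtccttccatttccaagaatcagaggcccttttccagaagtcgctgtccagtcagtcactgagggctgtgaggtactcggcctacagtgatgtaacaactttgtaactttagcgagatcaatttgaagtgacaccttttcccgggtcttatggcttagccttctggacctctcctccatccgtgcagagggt
Ptpn6: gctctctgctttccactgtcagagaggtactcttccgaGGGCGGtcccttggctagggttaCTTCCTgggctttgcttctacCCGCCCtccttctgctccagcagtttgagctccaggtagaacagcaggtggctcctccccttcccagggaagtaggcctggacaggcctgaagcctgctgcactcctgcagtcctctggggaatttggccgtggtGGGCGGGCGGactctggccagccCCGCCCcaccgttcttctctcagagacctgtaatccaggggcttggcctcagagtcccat
The ETS letters matched once in Cblb and Ptpn6 and at 2 overlapping places in Ubash3b, and 35.4% of all 32851 windows hold them. The Sp1 letters matched 3 times in Cblb and 5 times in Ptpn6 and are in 35.7% of windows. The RUNX letters (16.8% of windows) and the TATA box (13.6%) were in none of these 3 windows. Ubash3b has another listed start, whose window held none of the 4 motifs. These matches describe the letters only.

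Signals are log2 values averaged over the exon-level probe sets of a gene, and differences are Ly49C/I+ minus Ly49G2+. The gene-level test was limma across all 21442 genes, two-sided, with a Benjamini-Hochberg adjusted p under 0.05 as the threshold. It passed 9.88% of all genes, 6.16% as higher in Ly49C/I+ cells and 3.72% as higher in Ly49G2+ cells. Among genes above the median signal, where all 10 lay, it passed 16.8%, with 10.9% toward Ly49C/I+ and 5.9% toward Ly49G2+ cells. Klra9, the gene of Ly49I, was at 11.48 to 11.81 on the Ly49C/I+ arrays and 9.46 to 9.78 on the Ly49G2+ arrays, with no overlap. Klra3, another Ly49 gene, lay closer, at 10.80 to 10.94 against 9.89 to 10.16, also with no overlap. Both genes were above the median of gene signals (7.08) on the Ly49G2+ arrays too. The gene of Ly49G2 itself is not shown here. For Ly49G2+ replicate 1 the title and the source label disagree on the subset. The title was followed here, and its Klra9 signal of 9.78 lay with the other Ly49G2+ arrays. Of the 12 NK cell markers listed, 0 lay below the lower quartile of gene signals (5.85), against 6 of 10 B cell markers, 2 of 12 myeloid markers and 1 of 15 T cell markers.

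Of the 10 genes, Cblb and Ubash3b were higher in Ly49G2+ cells, Ptpn6 was higher in Ly49C/I+ cells and 7 did not pass. All differences were small. The largest was 1.23-fold, and 0 of 10 reached 1.5-fold, which 0.499% of all genes did. The 3 arrays of one subset all lay above those of the other in 7 of the 10. The Ly49C/I+ arrays were on top in 2 and the Ly49G2+ arrays in 5. Of all genes 27.8% lay so (14.3% and 13.5%), a share not taken for genes above the median signal alone. Over the 10 genes the median log2 difference was -0.09, beside -0.01 over all genes, with 3 differences above 0 and 7 below. The plot of all arrays shows each gene about its own mean.

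**Figure D1:**
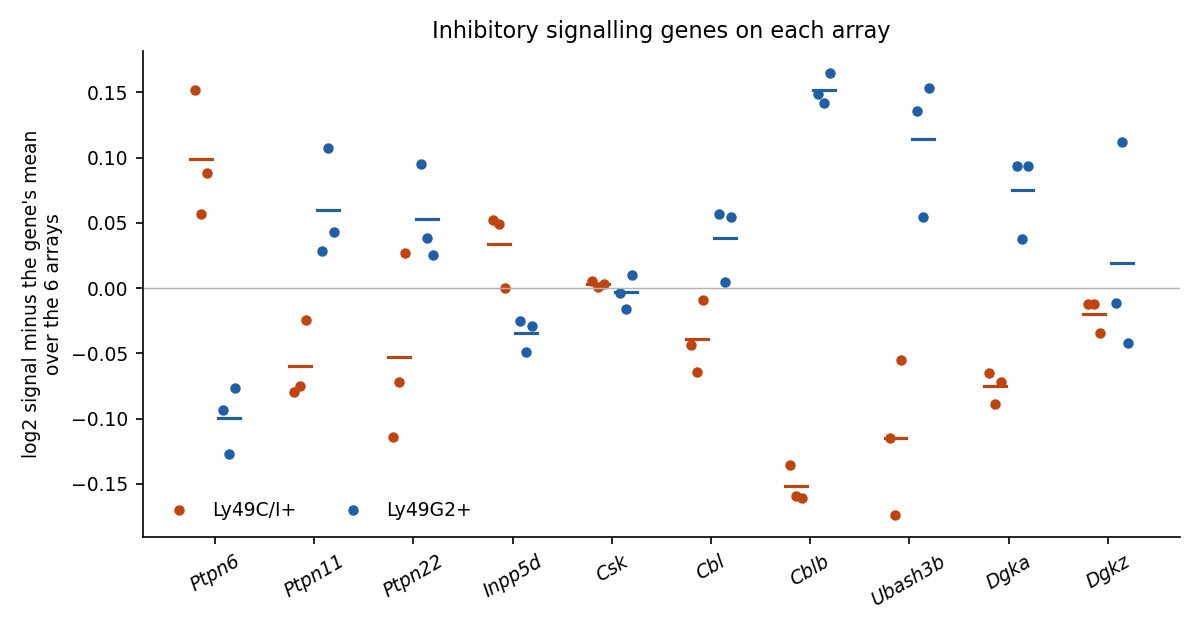
Each point is 1 array, plotted as the log2 signal of a gene minus that gene's mean over the 6 arrays, with Ly49C/I+ arrays in orange, Ly49G2+ arrays in blue and a bar at each group's mean. The subsets separate without overlap for Cblb, Ubash3b, Dgka, Ptpn11 and Cbl (Ly49G2+ higher) and for Ptpn6 and Inpp5d (Ly49C/I+ higher), and overlap for Ptpn22, Csk and Dgkz.

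SHP-1, encoded by Ptpn6, is the phosphatase most closely tied to inhibitory Ly49 receptors. Its signal was 11.02, 10.93 and 10.96 on the Ly49C/I+ arrays and 10.78, 10.74 and 10.79 on the Ly49G2+ arrays. Every Ly49C/I+ array lay above every Ly49G2+ array. Group means were 10.97 ± 0.048 (SD, n = 3) and 10.77 ± 0.026. They differed by 0.20 ± 0.045 (SE) on the log2 scale, or 1.15-fold, and limma's adjusted p was 0.0209. In the authors' deposited table its ratio is 1.15 and its unadjusted p 0.000752. The call was lost when Ly49C/I+ replicate 1 or 3 was left out (limma adjusted p = 0.0802 and 0.064). It was also lost without Ly49G2+ replicate 1 or 3 (0.0646 and 0.0502). These runs have fewer arrays and called 1403 to 1560 of all genes, against 2118 with all arrays. The log2 difference of Ptpn6 stayed between 0.17 and 0.21 in them. With the median of its probe sets in place of their mean the log2 difference was 0.14 (adjusted p = 0.434), and without variance moderation the adjusted p was 0.0616.

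SHP-2, encoded by Ptpn11, is the closest relative of SHP-1 and also serves growth factor signalling through Ras. Its signal was 10.06, 10.06 and 10.11 on the Ly49C/I+ arrays and 10.17, 10.25 and 10.18 on the Ly49G2+ arrays. The groups did not overlap, but the log2 difference of -0.12 ± 0.045 (SE) did not pass (adjusted p = 0.139). Within each array, the log2 difference between Ptpn6 and Ptpn11 was larger in Ly49C/I+ cells by 0.32, and the groups did not overlap in it. Such a contrast combines the log2 differences of its 2 genes and is not separate evidence. An exact two-sided permutation test of the Ptpn6 and Ptpn11 contrast gave p = 0.1, the smallest that 3 against 3 arrays allow. It was 0.15 adjusted over 3 such pairs.

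SHIP, encoded by Inpp5d, removes a phosphate from the membrane lipid PIP3 and so takes away the docking site of several kinases. Its signal was 11.48, 11.47 and 11.42 on the Ly49C/I+ arrays and 11.40, 11.38 and 11.40 on the Ly49G2+ arrays. The Ly49C/I+ arrays were the higher ones without overlap. The log2 difference was 0.07 ± 0.042 (SE), with a 95% interval of -0.03 to 0.16, and did not pass (adjusted p = 0.381). It was -0.0017 with the median over probe sets.

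Ptpn22 encodes a phosphatase that acts on Src and Syk family kinases and partners with Csk. Its signal was 10.90, 10.94 and 11.04 on the Ly49C/I+ arrays and 11.11, 11.05 and 11.04 on the Ly49G2+ arrays. The highest Ly49C/I+ array lay just above the lowest Ly49G2+ array, and the log2 difference of -0.11 ± 0.050 (SE) did not pass (adjusted p = 0.249). It was -0.19 with the median over probe sets and -0.07 from the means in the authors' deposited table. Csk was the member whose means lay nearest each other, at 11.08 ± 0.0021 (SD, n = 3) for Ly49C/I+ and 11.07 ± 0.013 for Ly49G2+ arrays. The 95% interval of its log2 difference ran from -0.08 to 0.10.

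**Figure D2:**
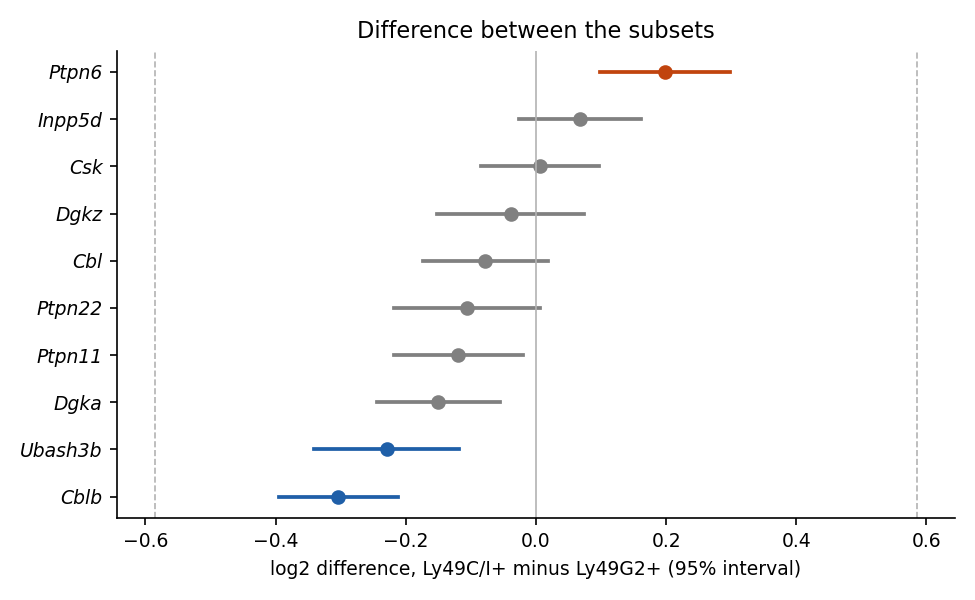
Points give the log2 difference of each gene, Ly49C/I+ minus Ly49G2+, with its 95% interval from limma, in orange or blue where the adjusted p was under 0.05 and in grey otherwise, and dashed lines mark 1.5-fold. Every interval lies inside the dashed lines, and the points run from -0.30 for Cblb to 0.20 for Ptpn6.

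Cbl-b, encoded by Cblb, is a ubiquitin ligase that raises the threshold of lymphocyte activation and restrains NK cells in mice. Its signal was 11.66, 11.64 and 11.64 on the Ly49C/I+ arrays and 11.95, 11.94 and 11.96 on the Ly49G2+ arrays. The gap between the groups was many times the spread within them, with means of 11.64 ± 0.014 (SD, n = 3) and 11.95 ± 0.012. On the log2 scale the difference was -0.30 ± 0.041 (SE), which puts Cblb 1.23-fold higher in Ly49G2+ cells, and limma's adjusted p was 0.00135. A difference of this size or more, in either direction, was found in 4.04% of all genes. In the authors' deposited table its ratio is 0.829 and its unadjusted p 0.000170. The call held without each array in turn, and of 18 alternative analyses it was lost in 1, the median over probe sets (log2 difference -0.21, adjusted p = 0.109).

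Its relative Cbl, which encodes the ligase c-Cbl, did not pass. Cbl was at 10.63, 10.61 and 10.66 on the Ly49C/I+ arrays and 10.73, 10.68 and 10.73 on the Ly49G2+ arrays. The groups lay apart by little, with a log2 difference of -0.08 ± 0.043 (SE, adjusted p = 0.327). It was -0.03 without the 4 probe sets of Cbl in which 1 array deviated and -0.03 from the means in the authors' deposited table. The difference within arrays between Cblb and Cbl was lower in Ly49C/I+ cells by a log2 value of -0.23, without overlap of the groups (exact two-sided permutation p = 0.1, and 0.15 adjusted over the 3 pairs).

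Ubash3b encodes Sts-1, a phosphatase that binds Cbl proteins and acts on Syk family kinases. Its signal was 10.75, 10.69 and 10.81 on the Ly49C/I+ arrays and 11.002, 10.92 and 11.02 on the Ly49G2+ arrays. The groups did not overlap, and replicate 2 was the lowest in both, as it also was for Ptpn6, Csk, Cbl and Dgka. The means of 10.75 ± 0.059 (SD, n = 3) and 10.98 ± 0.053 put Ubash3b 1.17-fold higher in Ly49G2+ cells. On the log2 scale the difference was -0.23 ± 0.050 (SE), and limma's adjusted p was 0.0168. This p was 0.0568 and 0.0692 when Ly49C/I+ replicate 1 or 2 was left out, 0.0638 and 0.0655 when Ly49G2+ replicate 1 or 3 was, 0.0916 without variance moderation and 0.217 with the median over probe sets. In the authors' deposited table the ratio of Ubash3b is 0.890 and its unadjusted p 0.00415, which became 0.0616 when adjusted over all genes. For each of Cblb, Ubash3b and Ptpn6 an exact two-sided permutation test over arrays gave p = 0.1, the smallest possible here.

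Dgka and Dgkz encode diacylglycerol kinases alpha and zeta, which turn diacylglycerol into phosphatidic acid and so limit Ras and protein kinase C signalling. Dgka was at 10.94, 10.91 and 10.93 on the Ly49C/I+ arrays and 11.10, 11.04 and 11.09 on the Ly49G2+ arrays. The groups did not overlap, and the adjusted p of 0.0529 lay just outside the threshold, whereas Ptpn6 at 0.0209 was the member just inside it. The log2 difference was -0.15 ± 0.042 (SE), or 1.11-fold higher in Ly49G2+ cells, and -0.23 with the median over probe sets (adjusted p = 0.0657). Dgka passed in 10 of 18 alternative analyses, among them the analysis without Ly49G2+ replicate 2 (adjusted p = 0.0455), and adjusting the unadjusted p of the authors' deposited table over all genes gave 0.0136. It did not pass when any other array was left out (0.112 to 0.163).

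Dgkz was the only member made of more than 1 array row, with 33 probe sets in 1 row and 1 in each of 2 others. Averaged over the rows, its signal was 8.05, 8.05 and 8.02 on the Ly49C/I+ arrays and 8.05, 8.17 and 8.02 on the Ly49G2+ arrays. Ly49G2+ replicate 2 stood above the other 5, and the log2 difference of -0.04 ± 0.050 (SE) did not pass (adjusted p = 0.719). It was 0.0073 without that array. In the row with 33 probe sets the means were 10.09 in both subsets, and the authors' deposited table gives this row a ratio of 1.02. The contrast between Dgka and Dgkz within arrays overlapped between the groups (exact permutation p = 0.3, also after adjustment).

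The 10 genes were covered by 216 exon-level probe sets, which shows whether the parts of a transcript moved together. All 18 probe sets of Cblb and all 15 of Ubash3b had a lower mean in Ly49C/I+ cells. Of 5146 genes with at least 15 probe sets, at any signal level, 2.99% had all of them to 1 side. Of 19 probe sets of Ptpn6, 18 had a higher mean in Ly49C/I+ cells. For Inpp5d 27 of 32 were higher in Ly49C/I+ cells, while 23 of 26 of Dgka, 15 of 18 of Ptpn11, 19 of 22 of Ptpn22 and 12 of 17 of Cbl were lower there. Dgkz was split into 19 higher and 16 lower. These probe sets of 1 gene are read on the same arrays and are not independent replicates.

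The subsets did not overlap in 15 of 18 probe sets of Cblb, 8 of 15 of Ubash3b and 10 of 26 of Dgka, all higher in Ly49G2+ cells, where 8.7% of all probe sets lay so. For Ptpn6 it was 7 of 19, higher in Ly49C/I+ cells, where 9.9% of all lay so, and for Inpp5d 0 of 32. No single probe set of the 10 genes passed limma across 227645 probe sets, where 0.0206% did (0.00879% toward Ly49C/I+ and 0.0119% toward Ly49G2+ cells), while 13 of the 216 had an unadjusted p under 0.05 toward Ly49C/I+ cells, as did 6.91% of all, and 25 toward Ly49G2+ cells, as did 5.34% of all. All these shares cover dim probe sets too and were not taken for bright ones alone. Among Cblb probe sets the log2 difference ran from -0.42 to -0.10, and among those of Ptpn6 from -0.15 to 0.42. For Ubash3b it ran from -0.85 to -0.07.

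**Figure D3:**
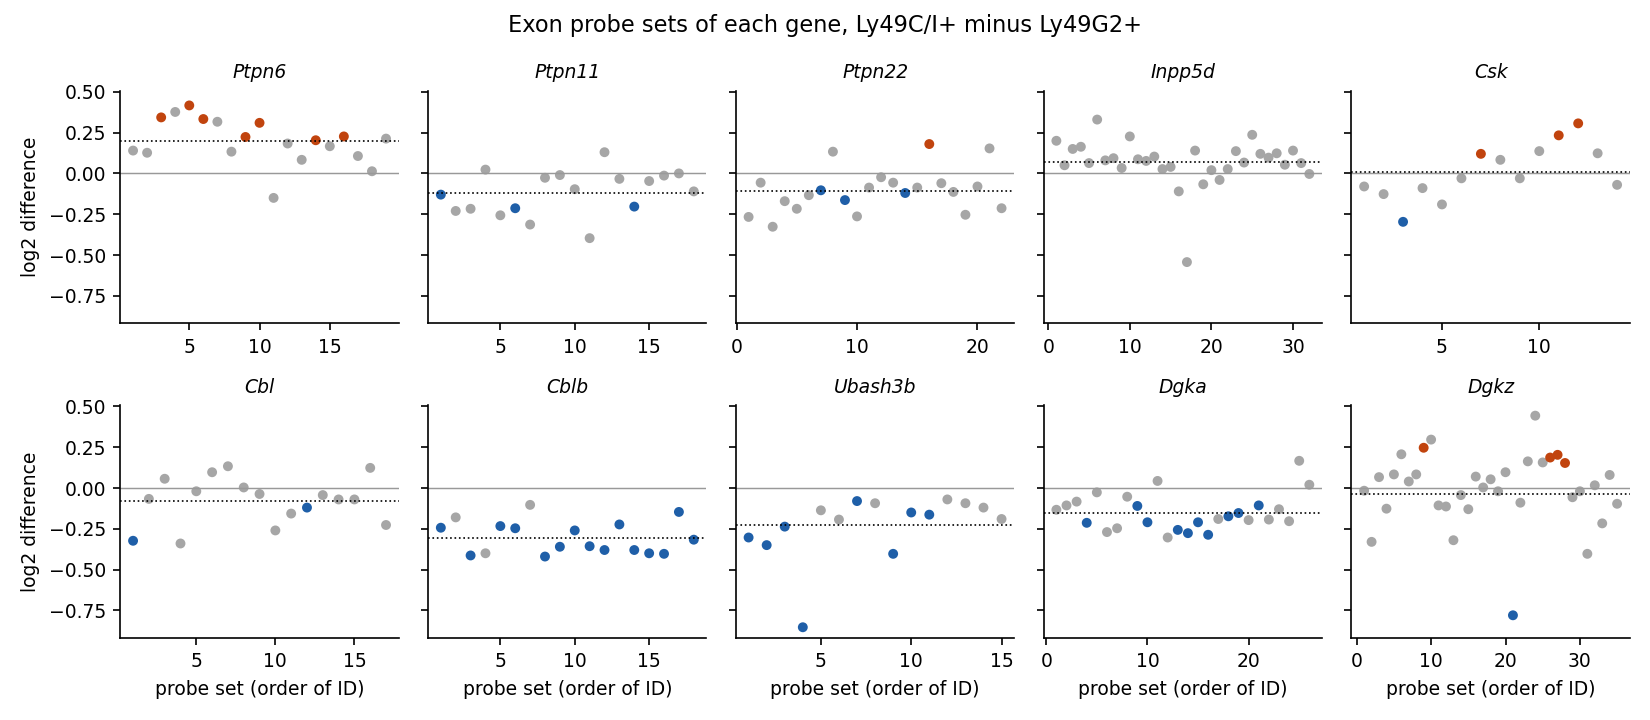
Each panel shows 1 gene, and each point the log2 difference of 1 exon probe set, Ly49C/I+ minus Ly49G2+, in the order of probe set ID, with orange or blue where the 3 arrays of one subset all lay above the other's and a dotted line at the gene's difference. The points of Cblb and Ubash3b all lie below 0, those of Ptpn6 lie above 0 but for 1, and those of Csk lie on both sides.

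The probe sets of Csk lay on both sides of 0. Its first 6 probe sets by ID all had a lower mean in Ly49C/I+ cells, down to a log2 difference of -0.30 at position 3, where the arrays read 11.48, 11.55 and 11.67 against 11.79, 11.88 and 11.92. At position 12 they read 11.21, 11.15 and 11.15 in Ly49C/I+ against 10.88, 10.68 and 11.03 in Ly49G2+ cells, a difference of 0.31. Both positions separated the subsets, in opposite directions. The limma diffSplice F test, which asks whether the difference varies among the probe sets of a gene, gave Csk an unadjusted p of 0.0191 and an adjusted p of 0.213. It passed 0 of the 10 genes and 3.48% of 17832 genes, and Csk was the 1 member with an unadjusted p under 0.05. In simulated data with the spread of each real probe set this test found 48.5% of genes in which 1 probe set was shifted by 2-fold, and 75.9% of its calls were false, so neither its calls nor their lack weigh much.

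Some of the most extreme probe sets came from 1 array. At position 17 of Inpp5d the Ly49C/I+ arrays read 11.30, 9.84 and 11.27 and the Ly49G2+ arrays 11.53, 11.46 and 11.05. At position 20 of the large Dgkz row they read 9.53, 7.79 and 9.42 against 9.71, 9.57 and 9.80. In both cases Ly49C/I+ replicate 2 was the lowest. In 25 of the 216 probe sets exactly 1 array lay more than 0.5 from the median of the other 5. In 14 of the 216 it was Ly49C/I+ replicate 2, low every time. Over all probe sets that array deviated alone in 9904 and was low in 6476 of them. As a share of all probe sets the 9904, high or low, were 4.35%, whereas the 14 of 216 were all low. The low ones alone were 6476 of 227645, to be set beside the 14 of 216. For Ly49G2+ replicate 2 the share in either direction was 4.91%, and for the other 4 arrays 1.71% to 2.70%. Without these 25 probe sets the log2 difference was 0.21 for Ptpn6, -0.30 for Cblb and -0.22 for Ubash3b, all still passing, and Dgka passed as well (-0.16, adjusted p = 0.0344).

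Some markers of other cells and of division differed between the subsets beside these genes. Their counts stand beside the 9.88% of all genes that passed, 6.16% toward Ly49C/I+ and 3.72% toward Ly49G2+ cells. Of 15 T cell markers, 4 passed as higher in Ly49G2+ cells (Cd3e, Cd3d, Cd3g and Cd8a, with log2 differences of -2.23 to -0.72) and 0 in Ly49C/I+ cells, and the mean level of the list was 8.27 to 8.35 on Ly49C/I+ and 8.66 to 8.69 on Ly49G2+ arrays. The other 11 T cell markers did not pass, with 5 log2 differences above 0 and 6 below, from -0.12 for Trat1 to 0.15 for Cd247. Of 14 proliferation markers, 13 were higher in Ly49C/I+ cells, with a mean level of 10.64 to 10.66 against 10.23 to 10.30. Of 12 NK markers only Klrk1 passed (0.21, higher in Ly49C/I+ cells), and 0 of 10 B cell markers did. Of 12 myeloid markers, Cd14 and Ly6g passed as higher in Ly49G2+ cells (log2 differences -0.22 and -0.23, with Ly6g below the lower quartile of signals) and 10 did not pass, 6 above 0 and 4 below, with a list median of -0.0015. The part of these markers in the differences of Cblb, Ubash3b and Ptpn6 was not tested. In such pools of sorted cells, fewer cells with a transcript and less of it per cell cannot be told apart.

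Around the 10 genes, 90 other negative regulators in 5 lists were read in the same test. It passed 7 of these toward Ly49C/I+ and 10 toward Ly49G2+ cells, and 73 did not pass, so that 18.9% passed beside 9.88% of all genes and 16.8% of those above the median signal. In every list genes passed in both directions, and the counts for single lists below stand beside those same shares. With the median over probe sets 2 passed in each direction, namely Ubash3a and Lair1 toward Ly49C/I+ and Dgkh and Pecam1 toward Ly49G2+ cells.

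**Figure D4:**
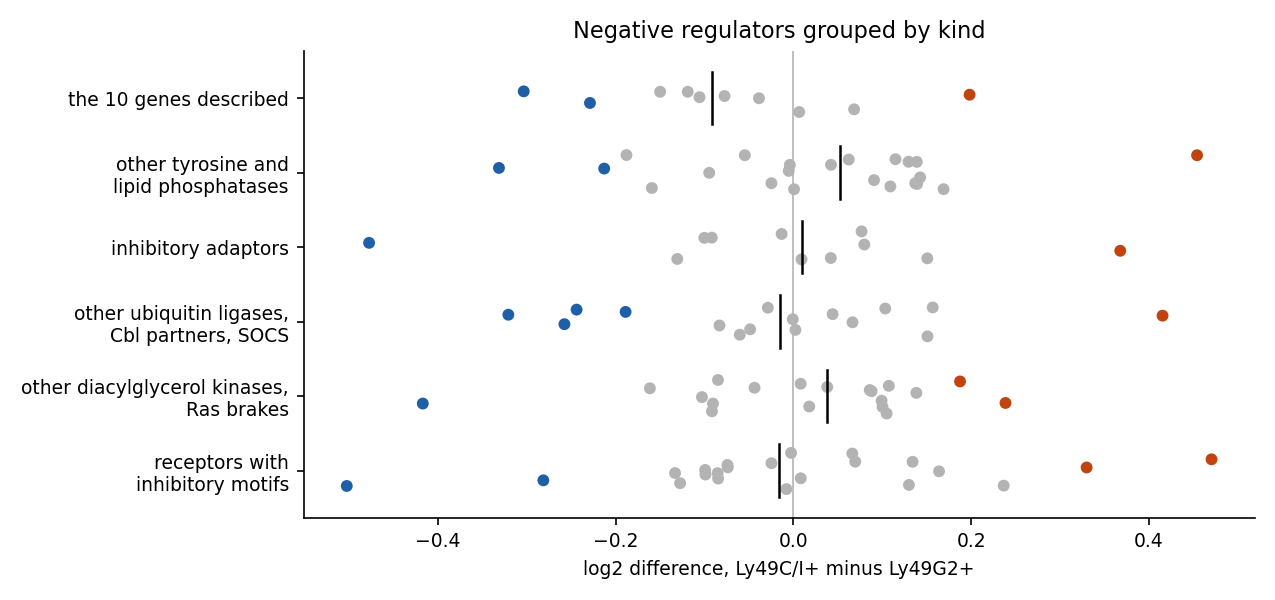
Each point is 1 gene at its log2 difference, Ly49C/I+ minus Ly49G2+, in orange or blue where the limma adjusted p was under 0.05 and in grey otherwise, with a line at the median of each list and points spread vertically for legibility. All 5 lists and the 10 genes hold points on both sides, and the list medians lie between -0.09 and 0.05.

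Among 22 other tyrosine and lipid phosphatases, 1 was higher in Ly49C/I+ and 2 were higher in Ly49G2+ cells (list median 0.05). Inpp4a, a phosphatase of the lipid that SHIP produces, was at 8.86 in Ly49C/I+ cells against 8.41, or 1.37-fold higher (limma adjusted p = 0.000205). Its log2 difference of 0.45 ± 0.041 (SE) was 0.22 with the median over probe sets (adjusted p = 0.121). Inpp5a, which degrades soluble inositol phosphates, was 1.26-fold higher in Ly49G2+ cells, and its log2 difference of -0.33 was -0.63 with the median over probe sets (adjusted p = 0.0636). Ptprj, the receptor phosphatase CD148, was 1.16-fold higher there, a call that was lost without Ly49C/I+ replicate 1 or 2 or Ly49G2+ replicate 1 or 3 (adjusted p 0.0563 to 0.0861). Its log2 difference of -0.21 averages 2 rows of the array. The brightest of its rows in the authors' deposited table gave -0.12, with a deposited p of 0.0741 once adjusted over all genes. The call of Ptprj also failed without moderation (0.089) and with the median over probe sets (0.192).

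Among 11 inhibitory adaptors, Sla and Sit1 passed, in opposite directions (list median 0.0090). Sla encodes SLAP, an adaptor that brings Cbl to antigen receptors, and was 1.29-fold higher in Ly49C/I+ cells. Sit1, a membrane adaptor with ITIMs, was 1.39-fold higher in Ly49G2+ cells, at 6.89 against 6.41. Both levels lay below the median of gene signals (7.08), and Sit1 has 6 probe sets. Sla and Sit1 had adjusted p-values of 0.0622 and 0.0575 with the median over probe sets, and that of Sit1 was 0.0538 without moderation. Pag1, the membrane anchor of Csk, had a log2 difference of 0.15 and did not pass (adjusted p = 0.0827).

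Of 16 other ubiquitin ligases, Cbl partners and SOCS proteins, 1 was higher in Ly49C/I+ and 4 were higher in Ly49G2+ cells (list median -0.01). Ubash3a, which encodes Sts-2, the relative of Sts-1, was at 8.27 in Ly49C/I+ cells against 7.85. The log2 difference was 0.42 ± 0.046 (SE), with an adjusted p of 0.000501 from limma. It thus lay on the other side from Ubash3b, and it passed in all 17 of its alternative analyses. Rnf128, the ligase GRAIL of unresponsive T cells, was 1.25-fold higher in Ly49G2+ cells. This call was lost without moderation (adjusted p = 0.0754), with the median over probe sets (0.153) and with the p of the authors' deposited table (0.113). The Cbl-binding adaptors Sh3kbp1 (1.18-fold) and Cd2ap (log2 difference -0.26) and Ndfip1 (1.14-fold), an activator of Itch family ligases, were also higher there. Cd2ap lost its call in 8 and Ndfip1 in 10 of 17 alternative analyses. Ndfip1 did not pass when any 1 array but Ly49G2+ replicate 3 was left out (adjusted p 0.0865 to 0.127). Cd2ap did not pass without any 1 array other than replicate 2 of either subset (0.0816 to 0.11). Sh3kbp1 did not pass without replicate 3 of either subset (0.0545 to 0.0715). All these runs also have fewer arrays. Sh3kbp1 also failed in 3 further alternative analyses, among them the authors' deposited table (0.0863). Socs1 and Cish, feedback inhibitors of cytokine receptors, had log2 differences of 0.15 and 0.10 and did not pass.

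Of 19 other diacylglycerol kinases and Ras brakes, 2 passed toward Ly49C/I+ and 1 toward Ly49G2+ cells (list median 0.04). Dgkh, diacylglycerol kinase eta, was 1.34-fold higher in Ly49G2+ cells, the side on which Dgka lay. Its log2 difference was -0.42 ± 0.051 (SE), with an adjusted p of 0.000845 from limma. Rasal3, a Ras GTPase-activating protein of blood cells, was 1.18-fold higher in Ly49C/I+ cells (adjusted p = 0.242 with the median over probe sets). Spry2 was 1.14-fold higher there, with an adjusted p of 0.0472 that rose to between 0.0955 and 0.148 without each array except Ly49G2+ replicate 3.

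Among 22 receptors with inhibitory motifs, 2 passed in each direction (list median -0.02). Ceacam1 and Pecam1, adhesion receptors that recruit SHP-1 or SHP-2, were 1.42-fold and 1.22-fold higher in Ly49G2+ cells, and Ceacam1 lost its call with the median over probe sets (adjusted p = 0.0727). Lair1, a collagen receptor, and Cd300a, a receptor of membrane phospholipids, were 1.39-fold and 1.26-fold higher in Ly49C/I+ cells. Both failed without moderation (adjusted p = 0.0869 and 0.0601) and with the p of the authors' deposited table (0.0763 and 0.174), and Cd300a also with the median over probe sets (0.27). Klrc1 (NKG2A) and Klrg1 had log2 differences of -0.0080 and 0.16 and did not pass.

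For each gene that passed, the named genes with the most similar profile over the 6 arrays were found by the root mean square difference of mean-centred log2 signals. For Ptpn6, whose own arrays spread by 0.104 about their mean on that measure, they were Trim37 (0.011), Dab2ip (0.014) and Ccdc15 (0.015). For Cblb (0.152) they were Gsn (0.021), Pecam1 (0.021) and Arl3 (0.021), and for Ubash3b (0.123) Terf2ip (0.015), Oxnad1 (0.020) and Cct2 (0.025). With 6 arrays in 2 groups and many genes to choose from, such neighbours are a description only.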

How the data were processed

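RNA of integrity number above 9 (100 ng per sample) was amplified and biotin-labelled per the labels' protocols, and RMA and Partek are named per the submitters' processing notes, with versions, settings and genome build not given in the sources used here. For 6 arrays the authors deposited log2 signals of 241576 probe sets at exon level, and a table of 35556 transcript clusters with log2 group means, an unadjusted p-value and a ratio of Ly49C/I+ over Ly49G2+ per the file headers. Precision is limited by the number of arrays, 3 in each group.

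Probe sets were joined to the cluster whose ID their unbroken run follows (241383 joined, 193 left out). Cluster means correlated with the deposited means at r = 0.990 for each subset across clusters, which are not replicates. Symbols were updated through 21023 RefSeq accessions of GRCm38.p6. A gene's signal is the mean log2 value of a cluster's probe sets, averaged again where a gene has several clusters. Positions of probe sets count from 1 by ID, and their order on the transcript is not given. Tests used limma 3.58.1 in R 4.3.3, without covariates or a filter on signal, and joins and figures used Python 3.11.15, pandas 2.3.3, numpy 2.4.6 and matplotlib 3.10.9. On simulated data with the spreads of these 21442 genes and 200 of them changed, in 10 runs, the gene-level test found 40.5% of the 1.2-fold changes and 92.8% of the 1.5-fold changes, with 3.56% false among its calls. In the real data 2118 genes passed, many more than were changed here. The adjusted threshold depends on that number, so these shares need not hold for the real data.

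The 10 genes and all lists were chosen with earlier results of these data known. Named are all 10 genes, up to 8 passing genes from each list and the 3 nearest profiles of each passing member. Marker genes, Csk probe sets, single probe sets of other genes and genes named as not passing were picked after their values were seen. The contrasts within 3 pairs of genes were not among the planned tests. Over all genes, samples with the same replicate number did not deviate together (r = -0.0763, -0.186 and -0.0457), so arrays were treated as unpaired. Alternatives were another moderation or none, a further quantile normalization, centring on array medians, signal filters (25th percentile or median), the median over probe sets, bright probe sets alone, array weights, a block on replicate number, each array left out, the deposited p-values, and 2 added after the data were seen (equal weights for Dgkz probe sets, and members without probe sets in which 1 array deviated). For a gene with several rows, the deposited values used were those of its brightest row.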

Additional observations from a re-analysis of the deposited data

How the results depend on the processing

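Leaving out 1 array gave 0 to 1 members higher in Ly49C/I+ cells and 1 to 3 higher in Ly49G2+ cells, and 0 were higher in Ly49C/I+ cells without variance moderation, with the replicate block or with the median over probe sets, which also gave 0 higher in Ly49G2+ cells. Without moderation and with the deposited p-values the 2 members higher in Ly49G2+ cells were Cblb and Dgka, not Ubash3b. Replicate numbers share only a number here. Under the replicate block the adjusted p of Ptpn6 was 0.0533 at the same difference, and all genes called fell from 2118 to 1476. Of the 90 related genes, 4 and 5 passed toward Ly49C/I+ and Ly49G2+ cells without moderation, 2 and 2 with the median over probe sets, and 12 toward Ly49C/I+ with the filter at the median. All genes called numbered 691 with the median over probe sets, 898 without moderation, 1149 with the deposited p-values, and 1351 and 1403 without Ly49C/I+ replicate 2 or 3. The log2 difference changed sign for Inpp5d with the median over probe sets (-0.0017). That of Dgkz changed sign without Ly49G2+ replicate 2 (0.0073, where leaving out 1 array gave -0.070 to 0.0073). From the deposited table Dgkz was at 0.035, but this is its row with 33 probe sets alone and not an average over its rows. The deposited ratios of its other 2 rows were 0.990 and 0.938. Causes were not tested. Single probe sets and diffSplice called 0 in every alternative run.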

Other observations

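Ly49G2+ replicate 2 stood apart from its group. It lay at 14.25 and 9.11 on the first principal components of gene signals, whereas replicate 1 was at 8.02 and -5.92, and replicate 3 at 7.44 and -7.10. When it was left out, the log2 difference of Dgka was -0.17 (limma adjusted p = 0.0455) and that of Cblb was -0.31 (0.00284).

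Ubash3b and its relative Ubash3a passed in opposite directions, at log2 differences of -0.23 and 0.42, over 15 and 14 probe sets that belong to separate rows of the array.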
